A study of Homo sapiens with 12 samples.

Results

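Transcripts of 9 transcription factors that define the hepatocyte were measured in Huh7 cells, an established human hepatocellular carcinoma line, treated with Molidustat or with DMSO alone. The factors were HNF4A, FOXA1, FOXA2, FOXA3, CEBPA, CEBPB, ONECUT1, NR5A2 and PROX1. They were chosen by name for their known role in liver identity and found through their Ensembl identifiers, and all 9 were present among the 60666 genes of the count files. All 9 also passed the filter on low counts, which retained 14274 genes. Cells received 25 µM Molidustat or the solvent DMSO for 24 h or 48 h, in medium with high glucose and 10% fetal serum, with penicillin and streptomycin, and with no genetic change in either arm. Each of the 4 groups (DMSO 24 h, Molidustat 24 h, DMSO 48 h and Molidustat 48 h) had 3 libraries, which made 12 libraries from 1 cell line. Whether the 3 libraries of a group came from separate cultures or only from separate RNA extractions is described differently in the sources, so p-values cover the spread between these libraries, which may be partly technical.

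These factors work as a network. HNF4A is a nuclear receptor that binds the regulatory regions of a large share of liver genes, and the FOXA proteins are pioneer factors that open chromatin so that other factors can bind. CEBPA and CEBPB are basic leucine zipper proteins that control metabolic and acute-phase genes, ONECUT1 (also called HNF6) is a cut-homeodomain factor of the developing liver and bile ducts, NR5A2 (LRH-1) is a nuclear receptor of bile acid and cholesterol metabolism, and PROX1 is a homeodomain protein needed for the outgrowth of the liver bud. Molidustat blocks prolyl hydroxylase enzymes and thereby stabilises HIF-α proteins, so the comparison asks how this regulatory network stands when the hypoxia response is switched on in normal oxygen.

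The libraries read the 3′ end of polyadenylated transcripts, and each held between 1499273 and 9179389 counts on genes. One library stood apart. DMSO 48 h replicate 2 had the smallest total, reads outside any annotated feature made up 50.4% of those listed, compared with 17.1 to 25.6% elsewhere, and its scaling factor (TMM) was 0.629 against 1.01 to 1.08. Its log2 levels correlated with those of the other libraries at 0.707 to 0.782 across genes, while the other libraries correlated with each other at 0.855 to 0.956. Values at 48 h that a statement rests on are therefore given with and without this library. Levels below are counts per 1000000 (CPM) after TMM scaling of all 12 libraries. In bulk RNA, more cells with a transcript and more transcript per cell cannot be told apart. Changes are log2 fold changes, log2(FC), of Molidustat against DMSO with their standard error (SE) from the quasi-likelihood test of edgeR, with p-values adjusted over all genes tested (p-adj). A gene was called when its p-adj was under 0.05 and its log2(FC) beyond 1 in either direction.

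The cell label and the treatment were checked on genes outside the 9. All 16 listed hepatocyte products, among them ALB, the TTR and APOA1 carriers and the fibrinogen chains, had counts in every library, and their summed level lay between 12045 and 28267 CPM in 11 libraries and was 6736 CPM in DMSO 48 h replicate 2. The 11 listed stromal, endothelial and immune markers summed to 4.26 to 27.2 CPM, with 5 to 9 of the 11 at a count of 0 in each library. BNIP3, a mitophagy receptor and HIF target, rose at both times, with a log2(FC) of 2.81 ± 0.34 at 24 h (p-adj = 0.000977) and 2.68 ± 0.34 at 48 h (p-adj = 0.00149, and 2.57 ± 0.29 without DMSO 48 h replicate 2). With each time point fitted alone the call at 48 h was lost (2.66 ± 0.35, p-adj = 0.0569). Its 6 Molidustat libraries lay between 975 and 1232 CPM and its 6 DMSO libraries between 103 and 207 CPM. PDK1, the kinase that restrains pyruvate dehydrogenase, was called at 24 h (log2(FC) 3.60 ± 0.68, p-adj = 0.0339) and not at 48 h (1.64 ± 0.63, p-adj = 0.271, and 2.47 ± 0.56 with a p-adj of 0.0698 without DMSO 48 h replicate 2). The call at 24 h was lost in 8 of the alternatives, which were RLE scaling (p-adj = 0.0529), the replicate number as a block (0.0977), thinning of the gene counts to the smallest total (0.154) and 5 fits that left out 1 library each, with a p-adj of 0.225 without DMSO 24 h replicate 1. Limma-voom called it at 48 h (2.34 ± 0.32, p-adj = 0.000136). So did edgeR with no filter on low counts (1.68 ± 0.44, p-adj = 0.00803) and DESeq2 without DMSO 48 h replicate 2 (2.52 ± 0.53, p-adj = 0.000489). NDRG1, a stress-responsive gene, had a log2(FC) of 2.52 ± 0.58 at 24 h with a p-adj of 0.135, and was called there without DMSO 48 h replicate 2 (2.52 ± 0.53, p-adj = 0.0265). Its 48 h value was 2.20 ± 0.57 (p-adj = 0.178), and 2.47 ± 0.58 without that library (p-adj = 0.0912), and edgeR called it in neither case, while DESeq2 called it at both times in all libraries (p-adj = 0.00255 and 0.00766). The other listed HIF targets that could be tested in all libraries, EGLN3 and ANKRD37, had a log2(FC) of 1.05 and 1.43 at 24 h and of 0.63 and 1.62 at 48 h (1.71 and 1.37 without DMSO 48 h replicate 2), and were not called at either time by edgeR, DESeq2 or limma-voom. Leaving out 1 library in turn moved the 24 h values of EGLN3 between 0.51 and 2.14 and those of ANKRD37 between 0.76 and 6.47.

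Promoter windows are shown for ONECUT1 and NR5A2, the members with the largest positive changes at 48 h. They are the 300 bases from 250 before to 50 after a RefSeq start on GRCh38.p14, read 5′ to 3′ on the strand of the gene. Capitals mark ACGTG or GCGTG on either strand, the letters at the core of the HIF binding site. RefSeq gives 1 start for ONECUT1 on the minus strand (chr15:52790287-52790586) and 2 for NR5A2 on the plus strand (chr1:200027460-200027759 and chr1:200042341-200042640).
ONECUT1: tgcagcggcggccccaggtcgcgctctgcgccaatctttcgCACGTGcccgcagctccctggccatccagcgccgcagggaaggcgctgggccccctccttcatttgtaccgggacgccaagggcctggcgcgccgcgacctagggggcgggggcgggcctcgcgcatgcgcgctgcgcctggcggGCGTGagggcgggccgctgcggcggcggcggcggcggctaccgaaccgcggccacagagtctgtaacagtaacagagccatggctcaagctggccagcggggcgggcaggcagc
NR5A2, upstream start: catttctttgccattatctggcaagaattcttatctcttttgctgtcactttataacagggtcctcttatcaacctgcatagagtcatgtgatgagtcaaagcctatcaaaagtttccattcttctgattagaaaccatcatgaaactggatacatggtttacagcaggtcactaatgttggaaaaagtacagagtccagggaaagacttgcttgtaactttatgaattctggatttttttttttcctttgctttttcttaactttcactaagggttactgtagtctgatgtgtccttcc
NR5A2, downstream start: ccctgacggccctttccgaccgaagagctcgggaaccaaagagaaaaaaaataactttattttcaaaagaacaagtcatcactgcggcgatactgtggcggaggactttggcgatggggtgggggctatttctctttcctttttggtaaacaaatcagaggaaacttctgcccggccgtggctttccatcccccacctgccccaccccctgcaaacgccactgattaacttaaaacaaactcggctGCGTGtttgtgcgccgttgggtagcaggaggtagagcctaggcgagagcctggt
The ONECUT1 window held overlapping matches to ACGTG on both strands, which begin 209 and 208 bases before the start, and 1 match to GCGTG that begins 64 bases before it. The upstream NR5A2 window held neither motif, and the downstream one held a single GCGTG that begins 4 bases before the start. Of 34943 RefSeq promoter windows of this length, 21.4% held ACGTG, 36.5% held GCGTG and 48.4% held at least 1 of them. Windows were found for 7 of the members, and ONECUT1 was the only one with ACGTG. CEBPB (2 overlapping windows) and FOXA3 held GCGTG, while CEBPA, FOXA1 and both windows of HNF4A held neither. FOXA2 and PROX1 had no entry. These letters occur in a large share of all windows, and a match is only a description of the sequence.

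None of the 9 factors was called at either time in the fit of all libraries. All 9 had a log2(FC) within 1 of 0 at 24 h and 6 did at 48 h, where ONECUT1 and NR5A2 lay above 1 and HNF4A below -1. At 24 h, 4 members had a positive and 5 a negative log2(FC), with a median of -0.12 and a range from -0.24 to 0.68. At 48 h, 5 were positive and 4 negative, with a median of 0.11 and a range from -1.88 to 1.16. The medians moved with single libraries, to 0.36 at 24 h without DMSO 24 h replicate 3 and to 0.36 at 48 h without DMSO 48 h replicate 1, and limma-voom gave 0.17 at 24 h. Over all 14274 genes the medians were 0.02 and 0.01. By the same rule 33 genes were called at 24 h, which is 0.231% of those tested, and 33 at 48 h, again 0.231%. Without DMSO 48 h replicate 2, 0.761% of 15253 genes were called at 24 h and 0.347% at 48 h, and again none of the 9. At an unadjusted p under 0.05 stood 2 members at 24 h, where 5.25% of all genes did, and 3 members at 48 h, where 13.3% did. The members at 24 h were ONECUT1 and PROX1, both positive. Those at 48 h were ONECUT1 and NR5A2, both positive, and HNF4A, negative. Without DMSO 48 h replicate 2 the 2 members at 24 h were again ONECUT1 and PROX1 (9.03% of genes), and at 48 h ONECUT1 and PROX1, both positive, stood at an unadjusted p under 0.05 (6.6% of genes), and NR5A2 and HNF4A did not. An exact permutation test of 3 libraries against 3 cannot give a p below 0.10, so single genes were judged by the fit across all genes only.

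**Figure D1:**
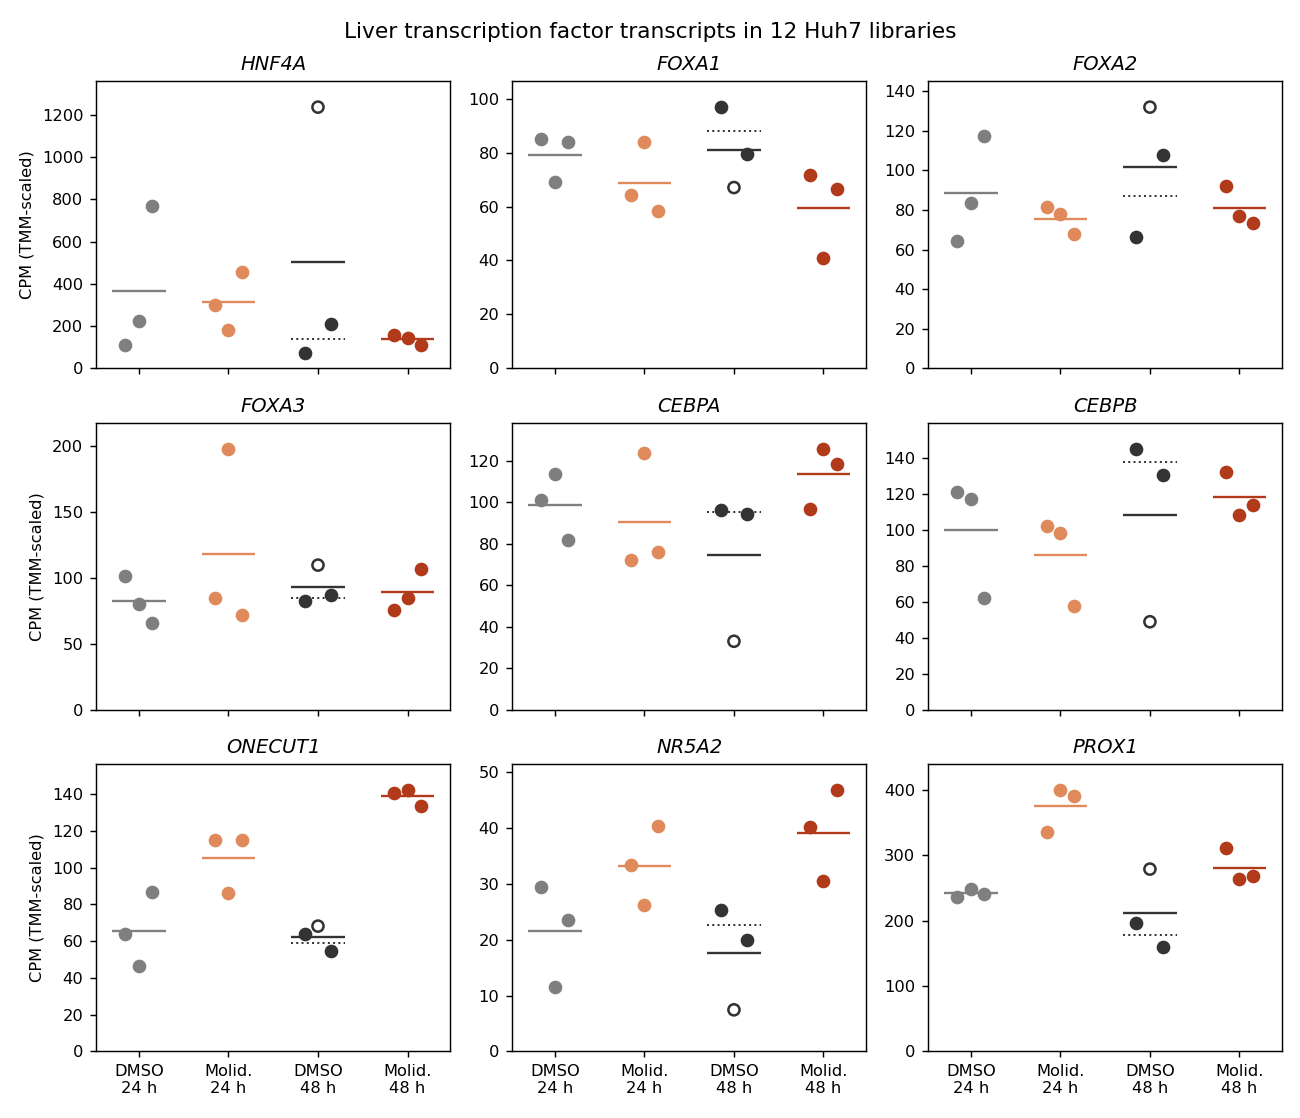
Level of each factor (y axis, TMM-scaled CPM from 0, a separate scale for each gene) in the 12 libraries by group (x axis). Points are libraries, solid lines group means, the open circle DMSO 48 h replicate 2 and the dotted line the DMSO 48 h mean without it. ONECUT1 at 48 h separates at 54.7 to 68.1 against 134 to 142 CPM, while HNF4A spans 70.5 to 1237 CPM within DMSO 48 h alone.

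ONECUT1 had the smallest p of the set at 48 h, with and without DMSO 48 h replicate 2. This gene (ENSG00000169856, chr15:52755053-52791078, minus strand) encodes a factor that is known to bind the promoters of HNF4A, FOXA2 and TTR. In DMSO its level was 63.8, 46.2 and 86.6 CPM at 24 h and 63.7, 68.1 and 54.7 CPM at 48 h. With Molidustat it was 115, 86.1 and 115 CPM at 24 h and 140, 142 and 134 CPM at 48 h. At 48 h the 3 Molidustat libraries were clear of the 3 DMSO libraries, and at 24 h the groups overlapped by less than 1 CPM, between the highest DMSO library and the lowest Molidustat library. The means at 48 h were 139 ± 4.46 CPM (SD, n = 3) with Molidustat and 62.2 ± 6.87 CPM (SD, n = 3) with DMSO. The edgeR log2(FC) was 0.68 ± 0.30 at 24 h (p-adj = 0.885) and 1.16 ± 0.30 at 48 h (p-adj = 0.173), and the gene was not called. Without DMSO 48 h replicate 2 the values were 0.68 ± 0.26 (p-adj = 0.396) and 1.21 ± 0.30 (p-adj = 0.118). DESeq2 and limma-voom with sample quality weights, run as alternatives, did call ONECUT1 at 48 h. DESeq2 gave 1.15 ± 0.30 (p-adj = 0.0119) and called 2.84% of the genes to which it gave an adjusted p. DESeq2 without DMSO 48 h replicate 2 gave 1.26 ± 0.29 (p-adj = 0.00242) and called 1.2%. Limma-voom gave 1.23 ± 0.23 (p-adj = 0.00322) and called 1.95%. The sign was positive in all 23 fits at each time, and at 48 h the log2(FC) ranged from 1.09 to 1.34 over them. The order of the 4 groups by mean was Molidustat 48 h, Molidustat 24 h (105 CPM), DMSO 24 h (65.5 CPM) and DMSO 48 h. The difference between the responses at 48 h and 24 h was 0.48 ± 0.42 (p-adj = 0.871), and DMSO at 48 h differed from DMSO at 24 h by -0.08 ± 0.30.

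NR5A2 (ENSG00000116833, chr1:200027614-200177420, plus strand) had the lowest counts of the 9, between 7 and 249 per library. Its DMSO libraries held 29.4, 11.6 and 23.5 CPM at 24 h and 25.3, 7.45 and 20.05 CPM at 48 h. Its Molidustat libraries held 33.3, 26.2 and 40.4 CPM at 24 h and 40.2, 30.5 and 46.8 CPM at 48 h. The groups overlapped at 24 h and were apart at 48 h, where the lowest DMSO value is that of DMSO 48 h replicate 2. The log2(FC) was 0.62 ± 0.44 at 24 h (p-adj = 0.999) and 1.09 ± 0.44 at 48 h (p-adj = 0.298), and 0.62 ± 0.36 and 0.78 ± 0.40 without that library (p-adj = 0.640 and 0.794). No alternative called NR5A2 at either time.

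PROX1 (ENSG00000117707, chr1:213983181-214041510, plus strand) had a small but even difference. At 24 h the DMSO libraries held 237, 249 and 241 CPM and the Molidustat libraries 336, 399 and 391 CPM, with no overlap. At 48 h the DMSO libraries held 196, 279 and 160 CPM and the Molidustat libraries 311, 264 and 268 CPM, which overlapped through DMSO 48 h replicate 2 alone. The log2(FC) was 0.63 ± 0.29 at 24 h (p-adj = 0.927) and 0.41 ± 0.29 at 48 h (p-adj = 0.600). Without that library it was 0.65 ± 0.21 (p-adj = 0.266) and 0.64 ± 0.24 (p-adj = 0.526). With the same library left out, DESeq2 gave 0.63 ± 0.18 at 24 h with a p-adj of 0.0410, so that PROX1 passed on the p-value and not on the size of the change. PROX1 varied little between replicates. Its within-group SD was 0.22 on the log2 scale, larger than that of only 1.89% of the genes tested, and 0.13 without DMSO 48 h replicate 2, larger than that of 0.413%.

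Complete separation of groups was common among all genes, which sets these patterns in context. At 24 h the lowest Molidustat library exceeded the highest DMSO library for 1 member (PROX1) and for 7.26% of genes. At 48 h this held for 3 members (ONECUT1, NR5A2 and CEBPA) and 9.96% of genes. Without DMSO 48 h replicate 2 it held at 48 h for 4 members, PROX1 being the addition, and 13.3% of genes. In those 11 libraries FOXA1 was the only member with all Molidustat libraries below the DMSO libraries at 48 h, which was so for 15% of genes.

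**Figure D2:**
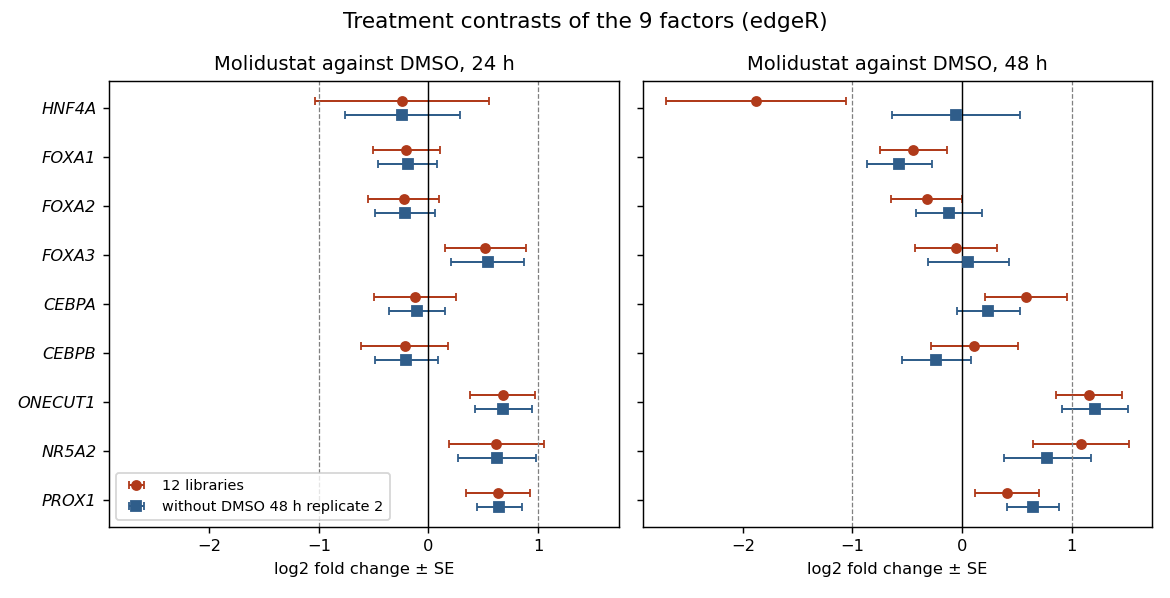
log2 fold change of Molidustat against DMSO (x axis, ± SE) for each factor (y axis) at 24 h and 48 h, in 12 libraries (circles) and without DMSO 48 h replicate 2 (squares). Dashed lines mark the fold threshold of the call, a log2 fold change of 1 either way. ONECUT1 stands at 1.16 and 1.21 at 48 h, and HNF4A moves from -1.88 to -0.05 when that 1 library is left out.

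HNF4A (ENSG00000101076, chr20:44355699-44432845, plus strand) varied widely within groups. Its level in DMSO was 111, 225 and 768 CPM at 24 h and 70.5, 1237 and 209 CPM at 48 h. In Molidustat it was 298, 183 and 456 CPM at 24 h and 156, 145 and 108 CPM at 48 h. The highest library of a group exceeded the lowest 6.94-fold in DMSO 24 h, 2.49-fold in Molidustat 24 h, 17.6-fold in DMSO 48 h (2.97-fold without replicate 2) and 1.44-fold in Molidustat 48 h. These are not low counts, since the smallest was 339 reads. The within-group SD of 1.31 on the log2 scale was larger than that of 85.2% of genes tested, and without DMSO 48 h replicate 2 it was 0.95, larger than that of 74.7%. The log2(FC) was -0.24 ± 0.79 at 24 h (p-adj = 0.999) and -1.88 ± 0.82 at 48 h (p-adj = 0.337). Without DMSO 48 h replicate 2 the 48 h value was -0.05 ± 0.59 (p-adj = 0.997), so the lower level at 48 h rested on that library. With no filter on low counts, where 2.69% of genes were called, edgeR called HNF4A lower at 48 h (-1.80 ± 0.41, p-adj = 0.00129) in all 12 libraries, which include the same one. Over culture time without that library HNF4A was lower at 48 h than at 24 h in both arms, by -1.38 ± 0.61 in DMSO (p-adj = 1) and -1.19 ± 0.53 in Molidustat (p-adj = 0.495), neither of which was called. In DMSO 24 h the library at 768 CPM stood apart. The values of 111 and 225 CPM there overlapped those left in DMSO 48 h, 70.5 and 209 CPM. With all 12 libraries the DMSO value was 0.45 ± 0.80 (p-adj = 0.943).

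The levels of the members were set against the share of reads on no annotated feature, and no relation passed after adjustment. For HNF4A, over the 11 libraries without DMSO 48 h replicate 2, Pearson's r between that share and log2 CPM was 0.69 (permutation p = 0.0188, adjusted over the 9 members 0.170) and Spearman's rho was 0.69 (permutation p = 0.0227, adjusted 0.204). Without the 2 libraries farthest from the median share, r was 0.87. On deviations from the group means r was 0.64. For the other members r lay between -0.59 (CEBPB) and 0.45 (FOXA2), with the smallest adjusted p at 0.297. Without the 2 farthest libraries r was -0.80 for FOXA3, -0.73 for CEBPB, -0.71 for CEBPA and 0.61 for FOXA2, and on deviations FOXA2, at 0.74, exceeded HNF4A. The labels give no batch within which the relation could be repeated. The part of this share in the values of the members was not tested.

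**Figure D3:**
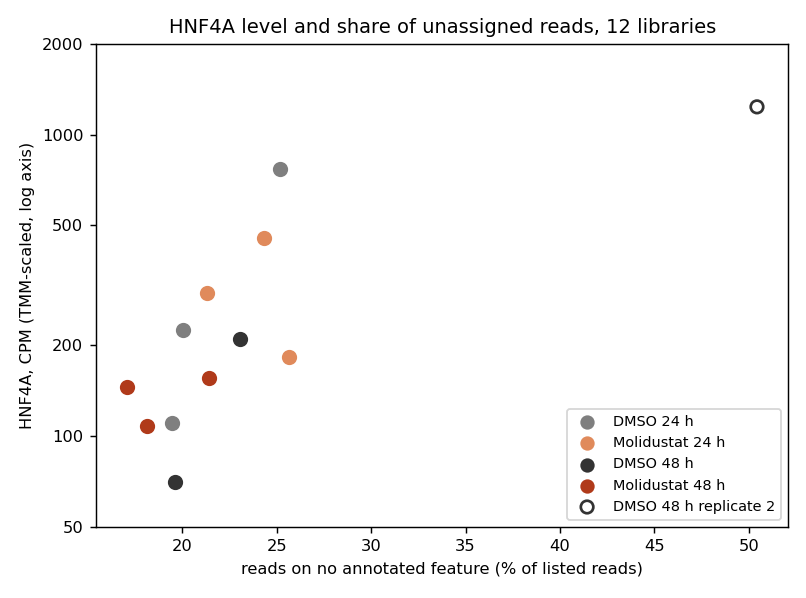
HNF4A level (y axis, TMM-scaled CPM, log axis) against the share of reads on no annotated feature (x axis, percent) in 12 libraries, with colours for the 4 groups and an open circle for DMSO 48 h replicate 2. That library has both the highest share (50.4%) and the highest level (1237 CPM), and Pearson's r over the other 11 was 0.69.

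The 3 FOXA genes did not pass the test at either time. FOXA1 (ENSG00000129514, chr14:37589552-37596059, minus strand) held 85.0, 68.9 and 83.9 CPM in DMSO 24 h and 64.2, 83.9 and 58.5 CPM in Molidustat 24 h. At 48 h it held 96.9, 67.1 and 79.4 CPM in DMSO and 71.7, 40.8 and 66.5 CPM in Molidustat. The groups overlapped at both times in all 12 libraries. Its log2(FC) was -0.20 ± 0.31 at 24 h and -0.45 ± 0.31 at 48 h (p-adj = 0.590), with -0.57 ± 0.30 at 48 h without DMSO 48 h replicate 2 (p-adj = 0.796). It was negative in all 23 fits at each time. FOXA2 (ENSG00000125798, chr20:22580998-22585455, minus strand) ranged from 64.3 to 117 CPM in DMSO 24 h, 67.9 to 81.4 in Molidustat 24 h, 66.4 to 132 in DMSO 48 h and 73.5 to 92.1 in Molidustat 48 h. Each Molidustat group lay inside the range of its DMSO group, with a log2(FC) of -0.23 ± 0.32 and -0.32 ± 0.32, and of -0.12 ± 0.30 at 48 h without DMSO 48 h replicate 2. FOXA3 (ENSG00000170608, chr19:45863989-45873797, plus strand) held 84.6, 198 and 71.5 CPM in Molidustat 24 h, and 66.1 to 110 CPM in the 9 libraries of the other groups. Its log2(FC) at 24 h was 0.52 ± 0.37 and became -0.08 without Molidustat 24 h replicate 2, the library at 198 CPM. At 48 h it was -0.06 ± 0.37, and 0.06 ± 0.37 without DMSO 48 h replicate 2.

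Neither C/EBP gene passed the test at either time. CEBPA (ENSG00000245848, chr19:33299934-33302534, minus strand), which restrains proliferation of hepatocytes, held 101, 114 and 81.8 CPM in DMSO 24 h and 72.1, 123 and 76.0 CPM in Molidustat 24 h. At 48 h it held 96.1, 33.0 and 94.4 CPM in DMSO and 96.6, 126 and 119 CPM in Molidustat, a separation of less than 1 CPM at its closest. Its log2(FC) at 48 h was 0.58 ± 0.38 (p-adj = 0.554), and 0.24 ± 0.29 without DMSO 48 h replicate 2 (p-adj = 0.985), whose 33.0 CPM is the lowest value of CEBPA in any library. At 24 h it was -0.12 ± 0.37. CEBPB (ENSG00000172216, chr20:50190830-50192668, plus strand), the inducible partner of the acute-phase response, held 121, 117 and 62.0 CPM in DMSO 24 h and 102, 98.6 and 57.5 CPM in Molidustat 24 h. At 48 h it held 145, 49.0 and 131 CPM in DMSO and 132, 109 and 114 CPM in Molidustat. Its log2(FC) was -0.22 ± 0.40 at 24 h and 0.11 ± 0.40 at 48 h, and the sign at 48 h turned to -0.24 ± 0.31 without DMSO 48 h replicate 2.

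No member was called for a difference between the 2 responses or over culture time, by edgeR, DESeq2 or limma-voom, and none had an unadjusted p under 0.05 there in the edgeR fit of all libraries. HNF4A alone had one over culture time without DMSO 48 h replicate 2, lower at 48 h in both arms. Interaction terms ran from -1.64 ± 1.13 for HNF4A to 0.71 ± 0.53 for CEBPA, with the smallest p-adj at 0.841, and 0% of all genes were called. Without DMSO 48 h replicate 2 the HNF4A term was 0.19 ± 0.79 and the CEBPA term 0.34 ± 0.39, and the terms ran from -0.48 (FOXA3) to 0.53 (ONECUT1). Between 48 h and 24 h, 0.00701% of genes (1 gene) were called in DMSO and 0% in Molidustat. The members lay between -0.38 and 0.45 over time in DMSO and between -1.19 and 0.46 in Molidustat, and without DMSO 48 h replicate 2 the range in DMSO was -1.38 to 0.49. These contrasts share libraries with the treatment contrasts.

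The products of the network were then described from lists of textbook target genes, chosen with earlier results of these data known, and several genes stand in more than 1 list. Their counts stand beside these shares of all genes. EdgeR called 0.231% at each time (0.761% and 0.347% without DMSO 48 h replicate 2), DESeq2 0.839% at 24 h and 2.84% at 48 h, limma-voom 0.448% and 1.95%, and edgeR with no filter on low counts 0.373% and 2.69%. An unadjusted p under 0.05 in edgeR was held by 5.25% at 24 h and 13.3% at 48 h, and by 9.03% and 6.6% without that library. Of 14 genes known as HNF4A targets, 9 could be tested, edgeR called 1 at 48 h and none at 24 h, 2 had an unadjusted p under 0.05 at 24 h and 4 at 48 h (3 and 4 without DMSO 48 h replicate 2), and the median log2(FC) was 0.13 at 24 h and 1.11 at 48 h (0.65 at 48 h without DMSO 48 h replicate 2). APOC3, an inhibitor of lipoprotein lipase, was the gene called. It held 18.4, 9.63 and 22.9 CPM in DMSO 24 h, 24.4, 51.2 and 57.7 CPM in Molidustat 24 h, 11.8, 8.52 and 13.8 CPM in DMSO 48 h and 47.9, 122 and 91.9 CPM in Molidustat 48 h. The groups did not overlap at either time, and APOC3 rose at 48 h with a log2(FC) of 2.89 ± 0.47 (p-adj = 0.0121), and of 2.75 ± 0.49 without DMSO 48 h replicate 2 (p-adj = 0.0129). The call was lost without Molidustat 48 h replicate 2 (2.56 ± 0.49, p-adj = 0.0793), without Molidustat 48 h replicate 3 (2.84 ± 0.53, p-adj = 0.0711) and with each time point fitted alone (2.88 ± 0.44, p-adj = 0.103). SERPINA1, the alpha-1-antitrypsin gene, held 688 to 752 CPM in DMSO 24 h, 1260 to 2120 in Molidustat 24 h, 468 to 1143 in DMSO 48 h and 2223 to 2691 in Molidustat 48 h. Its log2(FC) was 1.15 ± 0.37 (p-adj = 0.475) and 1.53 ± 0.37 (p-adj = 0.135), and it was called at both times without DMSO 48 h replicate 2 (1.16 ± 0.22, p-adj = 0.0149, and 1.23 ± 0.26, p-adj = 0.0474). APOA1, the main apolipoprotein of HDL, had 1.75 ± 0.54 at 48 h (p-adj = 0.208), and 1.28 ± 0.33 without that library (p-adj = 0.154). APOB went the other way at 48 h, with -0.46 ± 0.33 (p-adj = 0.609), and -0.67 ± 0.25 without that library (p-adj = 0.529). In the latter fit it was 1 of the 4 targets at an unadjusted p under 0.05. In all libraries DESeq2 and limma-voom each called 3 of these targets at 48 h, APOC3, SERPINA1 and APOA1, and DESeq2 called SERPINA1 at 24 h (p-adj = 0.0390).

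Of 9 FOXA targets 6 could be tested, with 1 call by edgeR at 48 h and medians of 0.73 and 1.04 (0.92 at 48 h without DMSO 48 h replicate 2). An unadjusted p under 0.05 was held by 1 of the 6 at 24 h and 4 at 48 h, and by 3 and 3 without that library. The gene called was IGFBP1, a secreted binder of insulin-like growth factors and a known HIF target. It had no count in any DMSO 24 h library and was 0, 9.35 and 4.23 CPM in Molidustat 24 h, a mean at least 17.8-fold above 3 counts over the whole DMSO group. The p-adj at 24 h was 0.156 in all libraries, and 5 of the alternatives called it there, among them edgeR without DMSO 48 h replicate 2 (p-adj = 0.0489) and DESeq2 (p-adj = 0.00558). At 48 h it had a single count in the 3 DMSO libraries together and 24.7, 16.3 and 19.9 CPM in Molidustat (p-adj = 0.0486, and 0.0334 without DMSO 48 h replicate 2). This call at 48 h was lost in 9 of the alternatives. ALB and the transthyretin gene TTR had 0.94 ± 0.40 (p-adj = 0.325) and 1.13 ± 0.51 (p-adj = 0.357) at 48 h, and 0.68 ± 0.31 and 0.70 ± 0.38 without that library. Of 14 C/EBP targets 8 could be tested and edgeR called none with or without that library, with 0 at 24 h and 4 at 48 h at an unadjusted p under 0.05 in all libraries (1 and 4 without it), and with medians of 0.57 and 0.93 (0.76 at 48 h without that library). Among them FABP1, the liver fatty acid binding protein, had 1.72 ± 0.63 (p-adj = 0.247), the acute-phase gene ORM1 1.12 ± 0.37 (p-adj = 0.227), and haptoglobin, HP, -1.72 ± 0.54 (p-adj = 0.208) at 48 h. Without that library these were 1.38 ± 0.61, 0.84 ± 0.33 and -2.10 ± 0.46, the last with a p-adj of 0.0623. HP was called lower at 48 h by limma-voom (-1.94 ± 0.40, p-adj = 0.00908) and by DESeq2 without that library (-2.06 ± 0.49, p-adj = 0.00396), and FABP1 was called higher by edgeR with no filter on low counts (1.69 ± 0.41, p-adj = 0.0024).

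For ONECUT1 itself, 4 of 7 listed targets could be tested and edgeR, DESeq2 and limma-voom called none, with 0 at 24 h and 2 at 48 h at an unadjusted p under 0.05 in edgeR, and 0 at 48 h without DMSO 48 h replicate 2. They include HNF4A, FOXA2 and TTR, whose values are given above. Of 8 NR5A2 targets 5 could be tested and edgeR called none (1 had an unadjusted p under 0.05 at 24 h and 2 did at 48 h, as without that library). The 2 at 48 h went opposite ways, NR0B2 higher and ABCG8 lower. ABCG8 had -4.87 ± 1.85 (p-adj = 0.265), and -4.57 ± 2.09 without that library (p-adj = 0.731). The list had medians of 0.26 and 0.18 (-0.27 at 48 h without that library). AFP, the fetal albumin, had 0.55 ± 0.38 at 48 h (0.30 ± 0.25 without that library). APOM held 39.4 to 271 CPM and SCARB1, the HDL receptor, 55.4 to 199 CPM over the 12 libraries. NR0B2 (SHP), the corepressor that binds NR5A2 and HNF4A, was noticed after its values were seen. Its mean was 2.14 ± 1.60 CPM (SD, n = 3) in DMSO 24 h and 10.6 ± 1.47 in Molidustat 24 h, and 1.27 ± 1.86 in DMSO 48 h and 17.1 ± 1.32 in Molidustat 48 h. The log2(FC) was 2.23 ± 0.81 at 24 h (p-adj = 0.681) and 3.39 ± 0.85 at 48 h (p-adj = 0.153, and 0.167 without that library), and edgeR did not call it. At 48 h 5 of the alternatives did, namely DESeq2 (p-adj = 0.00401), DESeq2 without that library (0.00359), limma-voom (0.00494), edgeR with no filter on low counts (0.00276) and edgeR without DMSO 48 h replicate 3, where the log2(FC) was 5.55 (0.0362).

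**Figure D4:**
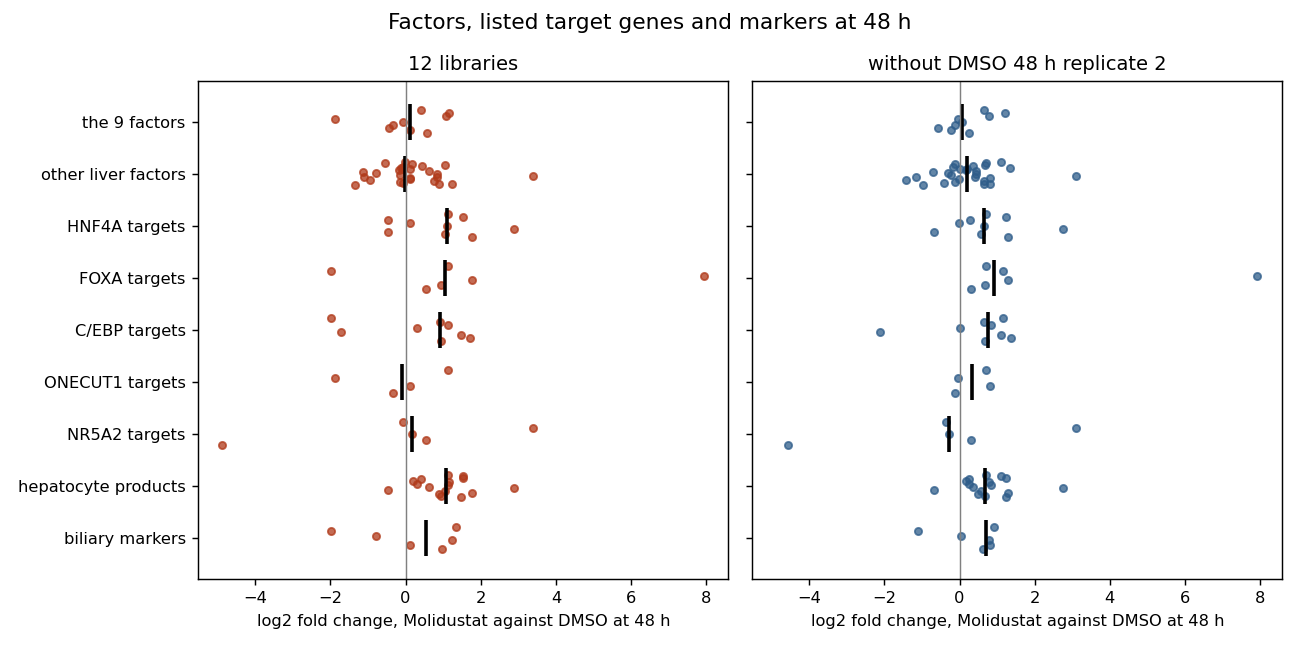
log2 fold change of Molidustat against DMSO at 48 h (x axis) for each tested gene of the named lists (y axis), in 12 libraries (left) and without DMSO 48 h replicate 2 (right). Points are genes and black bars list medians. The factors centre at 0.11 and 0.06, the HNF4A targets at 1.11 and 0.65 and the hepatocyte products at 1.08 and 0.69.

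The 16 hepatocyte products had higher medians than the factors. Their median log2(FC) was 0.54 at 24 h and 1.08 at 48 h (0.69 without DMSO 48 h replicate 2), with 15 of 16 positive at each time, beside medians of -0.12 and 0.11 for the 9 factors, which reached 0.36 at either time when 1 library was left out. At 24 h edgeR called none of the 16 in all libraries and 2 without DMSO 48 h replicate 2. It called 1 at 48 h in all libraries and 3 without that library. An unadjusted p under 0.05 was held by 4 of the 16 at 24 h and 10 at 48 h, and by 7 and 10 without it, beside 5.25% and 13.3% of all genes, and 9.03% and 6.6% without it. These genes were positive, except APOB at 48 h without that library (-0.67 ± 0.25, p-adj = 0.529). In all libraries DESeq2 called 1 of the 16 at 24 h and 6 at 48 h, where it called 0.839% and 2.84% of all genes, and limma-voom 1 and 5, where it called 0.448% and 1.95%. TF, the transferrin gene and a known HIF target, was the further call, with 1140 to 1303 CPM in DMSO 24 h, 2555 to 3190 in Molidustat 24 h, 636 to 2297 in DMSO 48 h and 4149 to 5442 in Molidustat 48 h. Its log2(FC) without DMSO 48 h replicate 2 was 1.27 ± 0.19 (p-adj = 0.00163) and 1.11 ± 0.22 (p-adj = 0.0351), and in all libraries 1.26 ± 0.42 (p-adj = 0.561) and 1.52 ± 0.42 (p-adj = 0.193). In all libraries TF was called at 48 h by DESeq2 (p-adj = 0.00617), limma-voom (0.00399) and edgeR with no filter on low counts (0.0304). Limma-voom also called TF at 24 h (p-adj = 0.0498). The list was chosen with earlier results known, and its difference from the factors was not tested. The summed level of these 16 products was lowest in DMSO 48 h replicate 2, and its part in the 48 h medians is seen in the values without it.

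Among 29 other liver-enriched transcription factors, 27 could be tested and edgeR called none in all libraries (at an unadjusted p under 0.05 stood 3 at 24 h and 4 at 48 h, and 5 and 6 without DMSO 48 h replicate 2). The shares of all genes at that p were 5.25% at 24 h and 13.3% at 48 h, and 9.03% and 6.6% without that library. The median log2(FC) of the list was -0.08 at 24 h and -0.03 at 48 h (0.19 at 48 h without DMSO 48 h replicate 2). Only ZHX2, a repressor of AFP, was called by edgeR in a treatment contrast without DMSO 48 h replicate 2, at 24 h (1.97 ± 0.35, p-adj = 0.00766, against 1.96 ± 0.56, p-adj = 0.344, in all libraries). In all 12 libraries ZHX2 was called at 24 h by limma-voom (1.76 ± 0.38, p-adj = 0.0360) and by edgeR with no filter on low counts (p-adj = 0.00156). With each time point fitted alone, on the 24 h libraries only, edgeR also called ZHX2 at 24 h (p-adj = 0.0366). In all 12 libraries DESeq2 called none of the list at 24 h and NR0B2 at 48 h, and limma-voom also called NR0B2 at 48 h. ZHX2 held 17.3 to 31.2 CPM in DMSO 24 h, 56.6 to 141 in Molidustat 24 h and 51.5 to 66.5 in Molidustat 48 h. In DMSO 48 h it held 22.8 and 31.9 CPM in replicates 1 and 3 and 136 CPM in replicate 2. At 48 h the activator ATF5 had -1.34 ± 0.45 (p-adj = 0.230) and CREB3L3, a membrane-bound factor of lipid metabolism, 1.25 ± 0.70 (p-adj = 0.478), and -0.98 ± 0.43 and 0.80 ± 0.54 without that library.

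The genes whose log2 CPM followed each member most closely over the 11 libraries without DMSO 48 h replicate 2 are given with Pearson's r, and with r over all 12 in brackets. The points are libraries that share cell line, treatment and scaling, and the 3 highest of 15253 genes are high by selection. For ONECUT1 they included DMTN at 0.97 (0.74) and PLIN2, a lipid droplet coat protein, at 0.95 (0.91). For NR5A2 they were DAO at 0.93 (0.94), SLC25A36 at 0.92 (0.43) and CAVIN2 at 0.91 (0.94). For PROX1 they were UBD at 0.95 (0.67), GABBR1 at 0.95 (0.68) and JUN at 0.92 (0.58). For HNF4A they were the pseudogene TBCAP1 at 0.97 (0.85), MIDN at 0.97 (0.98) and ZC3H4 at 0.96 (0.96). For FOXA1 they were MGAT4A at 0.94 (0.74), TBP at 0.92 (0.83) and CTSC at 0.92 (0.91). FOXA3 went with PRDX1 at 0.96 (0.96), TYMS at 0.95 (0.86) and RPS3A at 0.94 (0.90), genes of redox defence, nucleotide synthesis and the ribosome. CEBPA went with RBM14-RBM4 at 0.94 (0.04) and CDK5 at 0.91 (0.98), and CEBPB with RHEB at 0.94 (0.95), SCAMP1-AS1 at 0.94 (0.78) and SRSF9 at 0.93 (0.92). FOXA2 had the loosest neighbours, SBSPON and SLC7A6OS at 0.85 (0.90 and 0.45). The third gene for FOXA2 and for CEBPA has an identifier and no name, at 0.84 and 0.91.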

How the data were processed

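RNA from Huh7 cells was sequenced as 3′ libraries. According to the submitters' processing notes, STAR 2.7.9a aligned the reads to GRCh38 and HTSeq 0.11.2 counted them. The deposited files hold raw counts (whole numbers) for each gene. The annotation release, the strand setting and the use of molecular identifiers are not given in the sources used here, so PCR copies may be included and overlapping or antisense genes cannot be told apart. Names and positions are from GENCODE release 44, and 5 summary lines that name no gene were left out.

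Samples were grouped by labelled treatment and time. EdgeR 4.0.16 in R 4.3.3 fitted all 12 libraries at once (filterByExpr with minimum count 10 and minimum total 15, TMM, quasi-likelihood test, Benjamini-Hochberg adjustment). SE was obtained from log2(FC) and F. The study's tool, DESeq2 (here 1.42.0), and voom with sample quality weights (limma 3.58.1) were alternatives, beside other scaling, filters, depth, a block and left-out libraries. The edgeR, DESeq2 and voom fits of all libraries were tested on simulated data, and the other settings were not. Log2 CPM had a prior count of 2, and permutation tests 100000 resamples.

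The members and lists were chosen with earlier results of these data known. Named list genes are those called at 24 h or 48 h, with or without DMSO 48 h replicate 2, and the 3 per list with the largest change at a mean of at least 10 CPM. NR0B2, ABCG8 and APOB are named outside this rule. No 2 replicates agreed within sampling noise. Floors cover counting error only. A few single-gene values are not reported here.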

Additional observations from a re-analysis of the deposited data

How the results depend on the processing

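No member was called at 24 h, for the interaction or over time under any alternative. At 48 h 1 member was called by DESeq2, by DESeq2 without DMSO 48 h replicate 2 and by limma-voom (ONECUT1 each time) and 1 with no filter on low counts (HNF4A). The cause was not tested. For all genes called at 24 h and 48 h (33 and 33), DESeq2 gave 135 and 348, DESeq2 without DMSO 48 h replicate 2 gave 239 and 175, limma-voom 64 and 278, no filter 106 and 764, at least 10 counts in every library 15 and 15 of fewer genes, and each time point alone 57 and 7. Interaction calls (0) became 4 with DESeq2, 1 with DESeq2 without that library and 321 with no filter. DMSO time calls (1) became 38, 18 and 400 in these settings, 2 with limma-voom, 3 with total counts, and 0 with at least 10 counts in every library or after thinning. Molidustat time calls (0) became 12, 94 and 4, and 1 with limma-voom. Leaving out 1 library in turn gave 20 to 116 calls at 24 h and 13 to 327 at 48 h (highest without DMSO 48 h replicate 1 for 48 h), 1 to 2 and 0 to 4 over time in DMSO and Molidustat, and no member.

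Signs turned for some values, of which the members' -1.64 (HNF4A, interaction), 0.62 (NR5A2, 24 h) and 0.52 (FOXA3, 24 h) lay farthest from 0. HNF4A at 24 h became 0.47 with limma-voom, and 0.88 without DMSO 24 h replicate 3 and 0.05 without Molidustat 24 h replicate 2. FOXA2 at 24 h became 0.02 and FOXA3 -0.08 without those libraries, and CEBPA 0.01 without Molidustat 24 h replicate 1. The other ends of these ranges were -0.67 for HNF4A, -0.41 for FOXA2, 0.77 for FOXA3 and -0.42 for CEBPA. FOXA3 at 48 h became 0.09 with limma-voom, 0.14 with total counts, 0.05 after thinning, 0.06 without DMSO 48 h replicate 2, 0.05 without Molidustat 48 h replicate 1 and 0.10 with DESeq2 without DMSO 48 h replicate 2, against -0.21 at the other end. CEBPB became 0.04 at 24 h after thinning, and at 48 h -0.16 with limma-voom, -0.24 without DMSO 48 h replicate 2 and -0.19 with DESeq2 without it (0.36 at the other end). NR5A2 at 24 h became -0.01 after thinning. EGLN3 at 48 h became -0.04 without Molidustat 48 h replicate 1 (1.71 at the other end). The PROX1 interaction (-0.22) became 0.04 with limma-voom, 0.06 with total counts and 0.06 with DESeq2 without DMSO 48 h replicate 2, and that of HNF4A 0.19 without that library and 0.23 with DESeq2 without it (-2.77 at the other end). HNF4A over time in DMSO became -0.64 with limma-voom, -0.10 with total counts, -0.05 without DMSO 24 h replicate 1, and -1.38 and -1.41 without DMSO 48 h replicate 2 in edgeR and DESeq2 (1.55 at the other end). The median of the members moved to 0.17 at 24 h with limma-voom, and leaving out 1 library gave -0.13 to 0.36 at 24 h and 0.05 to 0.36 at 48 h. Total counts shifted the median of all genes at 48 h by 0.13. In all, 1155 of 1265 repeats of the log2 fold changes given kept their sign and call, 29 turned sign, 60 gained a call and 21 lost one.

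Replicate numbers gave same-numbered libraries deviations that correlated at -0.09 to 0.14 (18 pairs), so they were not taken as pairs, and 5 of 12 libraries deviated most like a library of their own number. With the replicate number as a block, 30 genes were called at 24 h and 22 at 48 h, no member was called, and HNF4A at 24 h became 0.03. Depth limits NR5A2 most, with 7 counts in DMSO 48 h replicate 2.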

Other observations

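The C/EBP family has further members beside CEBPA and CEBPB. Of 7 genes listed for the family 6 could be tested and none was called by edgeR, DESeq2 or limma-voom (0 at 24 h and 2 at 48 h had an unadjusted p under 0.05 in edgeR, and 0 and 1 without DMSO 48 h replicate 2), with a median log2(FC) of -0.01 at 24 h and 0.35 at 48 h, and 0.07 at 48 h without DMSO 48 h replicate 2. The list and its medians include CEBPZ, taken in by its symbol (-0.32 ± 0.37 at 48 h). Among all genes 5.25% at 24 h and 13.3% at 48 h had such a p, and 9.03% and 6.6% without that library. DDIT3 (CHOP), the stress-induced inhibitor of the family, had 1.25 ± 0.45 at 48 h (p-adj = 0.241), with 50.6, 9.58 and 52.0 CPM in DMSO and 76.6, 87.1 and 114 CPM in Molidustat, and 0.84 ± 0.31 without DMSO 48 h replicate 2 (p-adj = 0.537). CEBPD, an acute-phase factor, had 1.49 ± 0.67 (p-adj = 0.355) on lower levels, from 0 CPM in DMSO 48 h replicate 2 to 50.4 CPM in Molidustat 48 h replicate 3, and 1.04 ± 0.50 without the former.

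Biliary genes, which share ONECUT1 as a developmental regulator, had a positive log2(FC) at 24 h in all 6 that could be tested, and at 48 h 4 were positive and 2 negative (5 and 1 without DMSO 48 h replicate 2). Among all 14274 genes tested, 7352 were positive at 24 h and 7195 at 48 h. Of 8 markers 6 could be tested and edgeR called none with or without DMSO 48 h replicate 2 (0 at 24 h and 3 at 48 h had an unadjusted p under 0.05 in all libraries, and 2 and 2 without it), with medians of 0.32 and 0.54 (0.70 at 48 h without DMSO 48 h replicate 2). Such a p was held by 5.25% of all genes at 24 h and 13.3% at 48 h, and by 9.03% and 6.6% without that library. KRT19, a duct keratin, had 1.23 ± 0.53 at 48 h (p-adj = 0.324) and SPP1, osteopontin, 1.35 ± 0.70 (p-adj = 0.436), and 0.78 ± 0.32 and 0.92 ± 0.55 without that library. SOX9, a progenitor and duct factor, had -1.97 ± 0.46 (p-adj = 0.125). Its DMSO 48 h libraries held 289, 1048 and 305 CPM and its Molidustat 48 h libraries 168, 106 and 142 CPM, so the groups did not overlap with or without replicate 2. All Molidustat libraries lay below the DMSO libraries at 48 h for 8.02% of all genes, and for 15% without replicate 2. The log2(FC) of SOX9 without it was -1.11 ± 0.28 (p-adj = 0.130). SOX9 was called lower at 48 h in 6 of the alternatives, by DESeq2 (-2.04 ± 0.48, p-adj = 0.00319), DESeq2 without that library (-1.06 ± 0.28, p-adj = 0.0173), limma-voom (-1.21 ± 0.26, p-adj = 0.0131) and edgeR with no filter on low counts (p-adj = 0.000519), without DMSO 48 h replicate 1 (p-adj = 0.0372) or without DMSO 48 h replicate 3 (p-adj = 0.0417). At 48 h DESeq2 called 2.84% of all genes, DESeq2 without DMSO 48 h replicate 2 1.2%, limma-voom 1.95% and edgeR with no filter 2.69%. Of the transcripts that neighbour the members, 3 could be tested and edgeR and DESeq2 called none, while limma-voom called PROX1-AS1 higher at 48 h (2.12 ± 0.54, p-adj = 0.0390, against 1.60 ± 0.70 and p-adj = 0.339 by edgeR, and 1.89 ± 0.75 and p-adj = 0.615 without DMSO 48 h replicate 2). In edgeR 1 of the 3 had an unadjusted p under 0.05 at each time, beside 5.25% of all genes at 24 h and 13.3% at 48 h. Limma-voom called 1.95% of all genes at 48 h. LINC00261, next to FOXA2, held 104 to 248 CPM over the 12 libraries, highest in DMSO 48 h replicate 2.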
